A study of Mus musculus with 16 samples.

Results

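The nuclear-encoded respiratory chain genes of the mouse periaqueductal gray were followed across 4 groups of polyA RNA libraries. The set was chosen by name and level. It took the protein-coding genes whose symbols begin with Ndufa, Ndufb, Ndufc, Ndufs, Ndufv or Uqcr, the genes Sdha to Sdhd, and those named Cox4 to Cox8 followed by a letter, with at least 10 counts in at least 4 of the 16 libraries. Of 76 genes with such names, 74 met the count rule, out of 38924 genes in the files and 21226 protein-coding ones. Cox8b, the heart and muscle form of a complex IV subunit, had 39 counts over all libraries and Cox8c had 1, so both stayed outside; Cox7b2, with at least 10 counts in 7 libraries and 152 counts in all, lay just inside. The 74 genes comprised 7 core and 29 accessory subunits of complex I, 8 complex I assembly factors that carry the Ndufaf prefix, 4 complex II, 8 complex III and 18 complex IV genes. Ndufa4 and its paralog Ndufa4l2 were counted with complex IV, where the Ndufa4 protein is found.

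The respiratory chain sits in the inner mitochondrial membrane. Complexes I and II pass electrons from NADH and succinate to ubiquinone, complex III hands them on to cytochrome c, and complex IV gives them to oxygen; complexes I, III and IV pump protons that drive ATP synthase. Complexes I, III and IV also hold subunits encoded by mitochondrial DNA, and neurons depend on the chain for most of their ATP. Some complex IV subunits exist in a widely expressed form and in a form known from muscle, lung or testis.

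The periaqueductal gray, a midbrain region of the descending pain control pathway, was taken from male mice, to see what morphine tolerance and loss of RGSz1, a regulator of G protein signalling, do to gene expression there. Morphine is an opioid pain drug. The groups were RGSz1 knockout mice given morphine, naive RGSz1 knockout mice, wild-type mice given morphine and naive wild-type mice, with 4 libraries each. Every library pooled punches of 2 mice. Strain, age, dose and days of treatment are not given in the labels, and none of the groups carries a vehicle label. Handling and injection therefore cannot be told apart from morphine. Each library held between 19.1 and 55.0 M (mega) counts in genes. Levels are given as CPM, counts per M counts of a library. Rgs20, which encodes RGSz1, averaged 12.1 ± 0.667 CPM in knockout mice with morphine, 12.6 ± 0.95 CPM in naive knockout mice, 13.1 ± 1.04 CPM in wild-type mice with morphine and 12.8 ± 0.824 CPM in naive wild-type mice (SD, n = 4 each). It did not pass edgeR's quasi-likelihood test between the genotypes, with log2 fold changes of -0.11 ± 0.07 (SE) among mice given morphine (adjusted p = 0.669) and -0.02 ± 0.07 among naive mice (adjusted p = 0.943). "Knockout" below therefore means libraries labelled knockout; where the deleted part of the gene lies is not given, so these counts do not check it. All 10 neuron markers were detected, but such markers do not tell the periaqueductal gray from other brain regions. All 37 genes of mitochondrial DNA stood at 0 counts in every library, so the mitochondrially encoded subunits are not analysed here.

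The 74 genes took a nearly constant part of the RNA in every group. Their counts made up 0.585 ± 0.0121% of all gene counts in knockout morphine, 0.589 ± 0.0162% in knockout naive, 0.6 ± 0.0166% in wild-type morphine libraries, with 0.585 ± 0.0309% in naive wild-type libraries (SD, n = 4 each). The lowest and the highest share, 0.559% and 0.627%, both belonged to wild-type naive libraries, so the spread within that group was wider than the distance between any pair of group means. In bulk tissue, fewer cells of a type and less RNA per cell cannot be told apart.

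Levels were compared between genes as CPM per kb of exon. In wild-type naive libraries the highest levels belonged to complex IV subunits: Cox4i1, a subunit that regulates the enzyme by ATP binding, had 322 ± 29 CPM per kb, Cox8a had 304 ± 21.1 and Ndufa4 had 247 ± 19.9 (SD, n = 4). Cox6a1, the widely expressed form of subunit VIa, reached 246 ± 24.8 CPM per kb. Cox4i1 and Cox8a, and likewise Ndufa4 and Cox6a1, differed by less than 1 SD, while the step between Cox8a and Ndufa4 exceeded both SDs. Sdha, the flavoprotein of complex II that oxidises succinate, had 205 ± 12.8 CPM per kb and was the highest complex II gene, while the membrane anchor Sdhc had 25.8 ± 1.34. Uqcrh, the hinge protein of complex III, had 205 ± 21.2 CPM per kb and Uqcrc1, a core protein of that complex, had 148 ± 11.8. In complex I the accessory subunit Ndufb10 was highest with 146 ± 9.39 CPM per kb, and Ndufb9 had 134 ± 12.3.

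Medians by complex lay closer together. In wild-type naive libraries the median level per kb was 93.8 CPM for complex IV, 102 CPM for complex III, 80.3 CPM for complex II, 70.5 CPM for the complex I core and 63.8 CPM for the complex I accessory subunits. Without 6 minor isoforms and paralogs, the median of the remaining 12 complex IV genes was 118 CPM per kb. The assembly factors, which help to build complex I and are not part of the finished enzyme, had a median of 12 CPM per kb, and the highest of them, Ndufaf5, had 28.7 ± 1.95. These values depend on the annotated exon length, which joins the exons of a gene's protein-coding transcripts that the annotation (GENCODE) tags as basic.

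**Figure D1:**
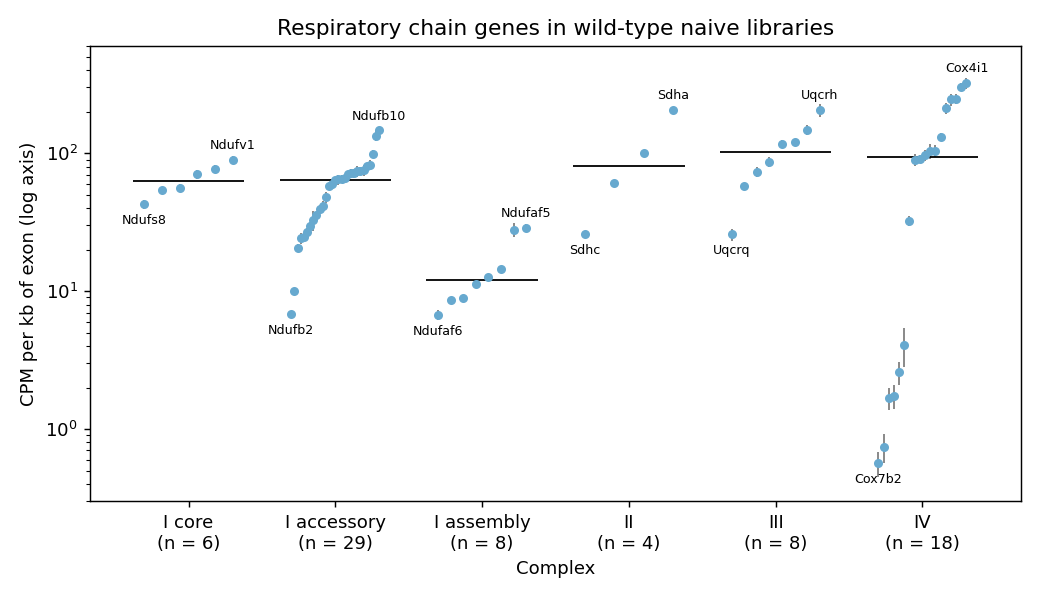
Level of 73 of the 74 genes in the 4 wild-type naive libraries, as CPM per kb of exon on a log axis, by complex; points are means, bars SD over libraries, and the black line is the median of the genes drawn for that class. Complex IV spans the widest range, 0.565 to 322 CPM per kb, and the assembly factors lie low.

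The minor forms of complex IV subunits were all scarce. Cox6a2, known from heart and skeletal muscle, made up 0.472 ± 0.099% of the summed Cox6a1 and Cox6a2 level per kb in knockout morphine, 0.264 ± 0.118% in knockout naive, 0.821 ± 0.139% in wild-type morphine libraries, with 0.307 ± 0.0852% in naive wild-type libraries (SD, n = 4 each). Cox4i2, a lung form known to respond to low oxygen, made up 0.274 to 0.704% of the Cox4 pair over the 16 libraries. The testis form Cox6b2 made up 1.26 to 2.9% of its pair, and Cox7a1, a heart and muscle form, 1.58 to 2.58% of the Cox7a1 and Cox7a2 sum. Cox7b2 reached at most 0.686% and Ndufa4l2 at most 0.814% of their pairs. In none of the 16 libraries did a minor form exceed 2.9% of its pair.

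Most of these genes varied little between libraries. The coefficient of variation of CPM over all 16 libraries had a median of 5.76%. Among genes with a mean of at least 20 CPM it was 5.72% for 64 respiratory chain genes and 5.12% for all 8272 genes. The steadiest was Ndufaf3, an assembly factor, with 2%. Ndufs5, a small accessory subunit, was the least steady of the genes above 20 CPM with 18%; it had 26.6, 29.3, 30.4 and 19.9 CPM in knockout morphine, 30, 34.1, 20.7 and 28.1 CPM in knockout naive, 25.2, 25.7, 26.5 and 39.4 CPM in wild-type morphine, and 30.6, 24.4, 24.4 and 33.8 CPM in wild-type naive libraries. All 4 groups overlapped for Ndufs5, and 21.7% of the 50-base stretches of its transcripts also occur in transcripts of other genes. Such sharing exceeded 10% in 17 of the 74 genes and exceeded 50% in none, with the highest values for Uqcrb (43.4%), Ndufs3 (39.7%) and Ndufb4 (37%); how the counting treated reads that fit several places is not given in the sources used here.

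In wild-type mice given morphine, counts assigned to the muscle-type subunit gene Cox6a2 were 2.7-fold higher than in naive wild-type mice. The complex I gene Ndufb3 was slightly higher, and no respiratory chain gene was lower. Cox6a2 shares exon bases with Itgad, a gene on the opposite strand, and the library kit does not mark the strand. Reads over these bases cannot be told apart, so the 2.7-fold rise cannot be assigned to Cox6a2 alone. With edgeR's quasi-likelihood test, 2 of 74 genes were higher and 0 lower at a Benjamini-Hochberg adjusted p under 0.05, while 4.41% of the 18111 genes tested were called in that comparison, 2.34% higher and 2.07% lower. DESeq2 called 7 of the 74 and limma-voom 3, all higher. At an unadjusted p under 0.05 there were 19 of 74 and 3637 of all genes. The median log2 fold change of the 74 genes was 0.06, against -0.01 for all genes, and 56 of 74 values were positive, against 47.9% of all genes. In 5 genes (Cox6a2, Ndufb3, Ndufa5, Ndufb6 and Ndufaf4) every morphine library lay above every naive one, and in 0 every one lay below; this held for 5.96% and 5.09% of all genes. The count of 2 was 1 without any 1 of wild-type naive 1, 2 and 3 or wild-type morphine 1 to 4, and 12 without wild-type naive 4.

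Cox6a2 had 1.23, 1.67, 1.24 and 1.28 CPM in wild-type morphine libraries, against 0.676, 0.524, 0.415 and 0.418 CPM in wild-type naive libraries. Every morphine library stood above every naive one. The log2 fold change was 1.43 ± 0.25 (SE; adjusted p = 0.00249, edgeR's quasi-likelihood test). Cox6a2 had 1.01, 0.846, 0.855 and 0.773 CPM in knockout morphine libraries, against 0.523, 0.305, 0.396 and 0.877 CPM in knockout naive libraries. Here the groups overlapped through knockout naive 4, the log2 fold change was 0.70 ± 0.27 and the adjusted p of edgeR's quasi-likelihood test was 0.102. Without that library the log2 fold change was 1.06 and the adjusted p of the same test 0.0142. That library was picked as the highest naive one, so leaving it out had to raise the fold change. A rise of Cox6a2 in knockout mice is therefore not shown. The counts behind these levels were low, 11 to 66 per library.

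Cox6a2 (chr7:128205435-128206387, minus strand, GRCm38) lies wholly inside the bounds of Itgad (chr7:128154376-128223816, plus strand), which encodes integrin alpha D, and shares exon sequence with it. Itgad had 1.82, 2.38, 1.97 and 2.44 CPM in wild-type morphine libraries, against 0.789, 0.466, 0.474 and 0.664 CPM in wild-type naive libraries. Itgad rose in both genotypes, with log2 fold changes of 1.02 ± 0.20 in knockout mice (adjusted p = 0.00349) and 1.88 ± 0.19 in wild-type mice (adjusted p = 1.28e-05, both by edgeR's quasi-likelihood test). Among mice given morphine Itgad was lower in knockout than in wild-type mice, with -0.84 ± 0.18 (adjusted p = 0.0353), and its interaction did not pass (-0.86 ± 0.27, adjusted p = 0.27, both by edgeR's quasi-likelihood test). The library kit does not mark the strand, so reads of Cox6a2 and Itgad over their shared bases cannot be told apart. Among all 74 genes, 21 share exon bases with another gene, 20 of them with a gene on the opposite strand.

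**Figure D2:**
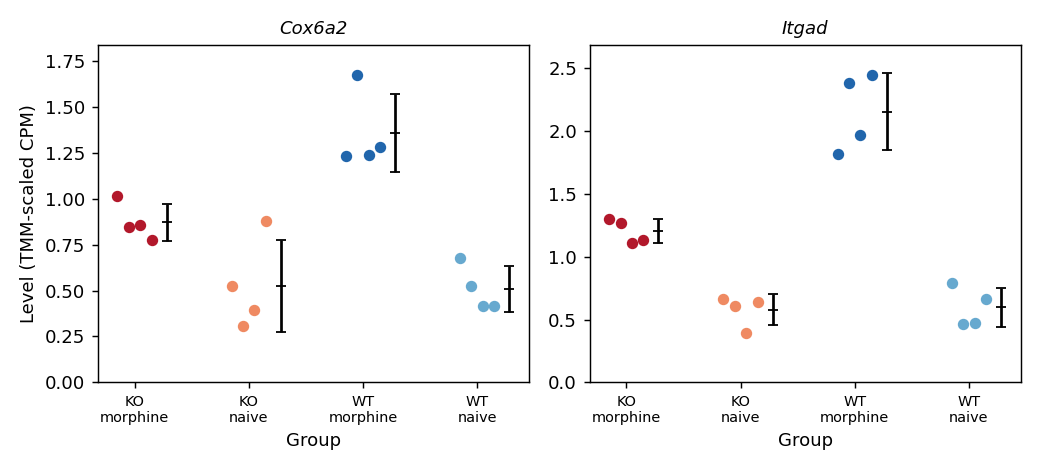
Level of Cox6a2 and of Itgad, the gene that surrounds it on the other strand, in each library, as CPM scaled by TMM; points are libraries, the bar beside them the mean and SD of 4. The means of both genes are highest in wild-type morphine libraries, followed by knockout morphine libraries.

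Ndufb3, an accessory subunit in the membrane arm of complex I, had 56.6, 55.5, 54.5 and 55.1 CPM in wild-type morphine libraries, against 50, 46.2, 48.8 and 53.6 CPM in wild-type naive libraries. The groups did not overlap, but the step was small, with a log2 fold change of 0.16 ± 0.04 (adjusted p = 0.0391, edgeR's quasi-likelihood test). Unlike that of Cox6a2, this call was lost when some single libraries were left out. In knockout morphine libraries Ndufb3 had 52.3, 50.7, 55.1 and 50.8 CPM, against 48.6, 52, 50.8 and 48.3 CPM in knockout naive libraries. These groups overlapped. Several further genes came near the threshold in wild-type mice: Cox7b, a complex IV subunit, with a log2 fold change of 0.18 ± 0.05 (adjusted p = 0.0583), Ndufa5 of complex I with 0.15 ± 0.05 (0.065), and Ndufs1, the largest core subunit of complex I, with 0.12 ± 0.04 (0.0826), all by edgeR's quasi-likelihood test.

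By complex, positive values in wild-type mice were found for 4 of 7 core and 24 of 29 accessory subunits of complex I, 6 of 8 assembly factors, 4 of 4 complex II, 7 of 8 complex III and 11 of 18 complex IV genes. Their median log2 fold changes were 0.02, 0.06, 0.09, 0.08, 0.07 and 0.05 in that order. Uqcrfs1, the Rieske iron-sulfur protein of complex III, had a log2 fold change of 0.10 ± 0.04 (adjusted p = 0.204), Cox5a of complex IV 0.13 ± 0.07 (0.323) and Cox4i1 0.07 ± 0.06 (0.529), by edgeR's quasi-likelihood test. Ndufv1, the core subunit that binds NADH, had 0.02 ± 0.05 (0.844). None of these passed the test.

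In knockout mice given morphine, no respiratory chain gene passed the test, with 0 higher and 0 lower of 74 by edgeR's quasi-likelihood test, although 11.5% of all tested genes were called there, 5.67% higher and 5.83% lower. At an unadjusted p under 0.05 there was 1 gene, Cox6a2, and 4612 of all genes; DESeq2 and limma-voom also called 0. The median log2 fold change was 0.00, as for all genes, and 34 of 74 values were positive. Cox4i2 had a log2 fold change of -0.42 ± 0.21 (adjusted p = 0.218) and Ndufs7, a core subunit of complex I, -0.08 ± 0.05 (0.285), by edgeR's quasi-likelihood test. In Ndufv2 and Sdha every knockout morphine library lay above every knockout naive one, against 8.27% of all genes.

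The intervals of these estimates were narrow. In knockout mice the 95% interval of the morphine effect lay within a 1.2-fold change either way for 65 of 74 genes, and in wild-type mice for 62. The exceptions in both genotypes included the 6 minor isoforms, Ndufs5 and Ndufaf2. Among the 68 genes other than the minor isoforms, fitted fold changes ran from 0.923 to 1.07 in knockout mice and from 0.937 to 1.14 in wild-type mice.

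**Figure D3:**
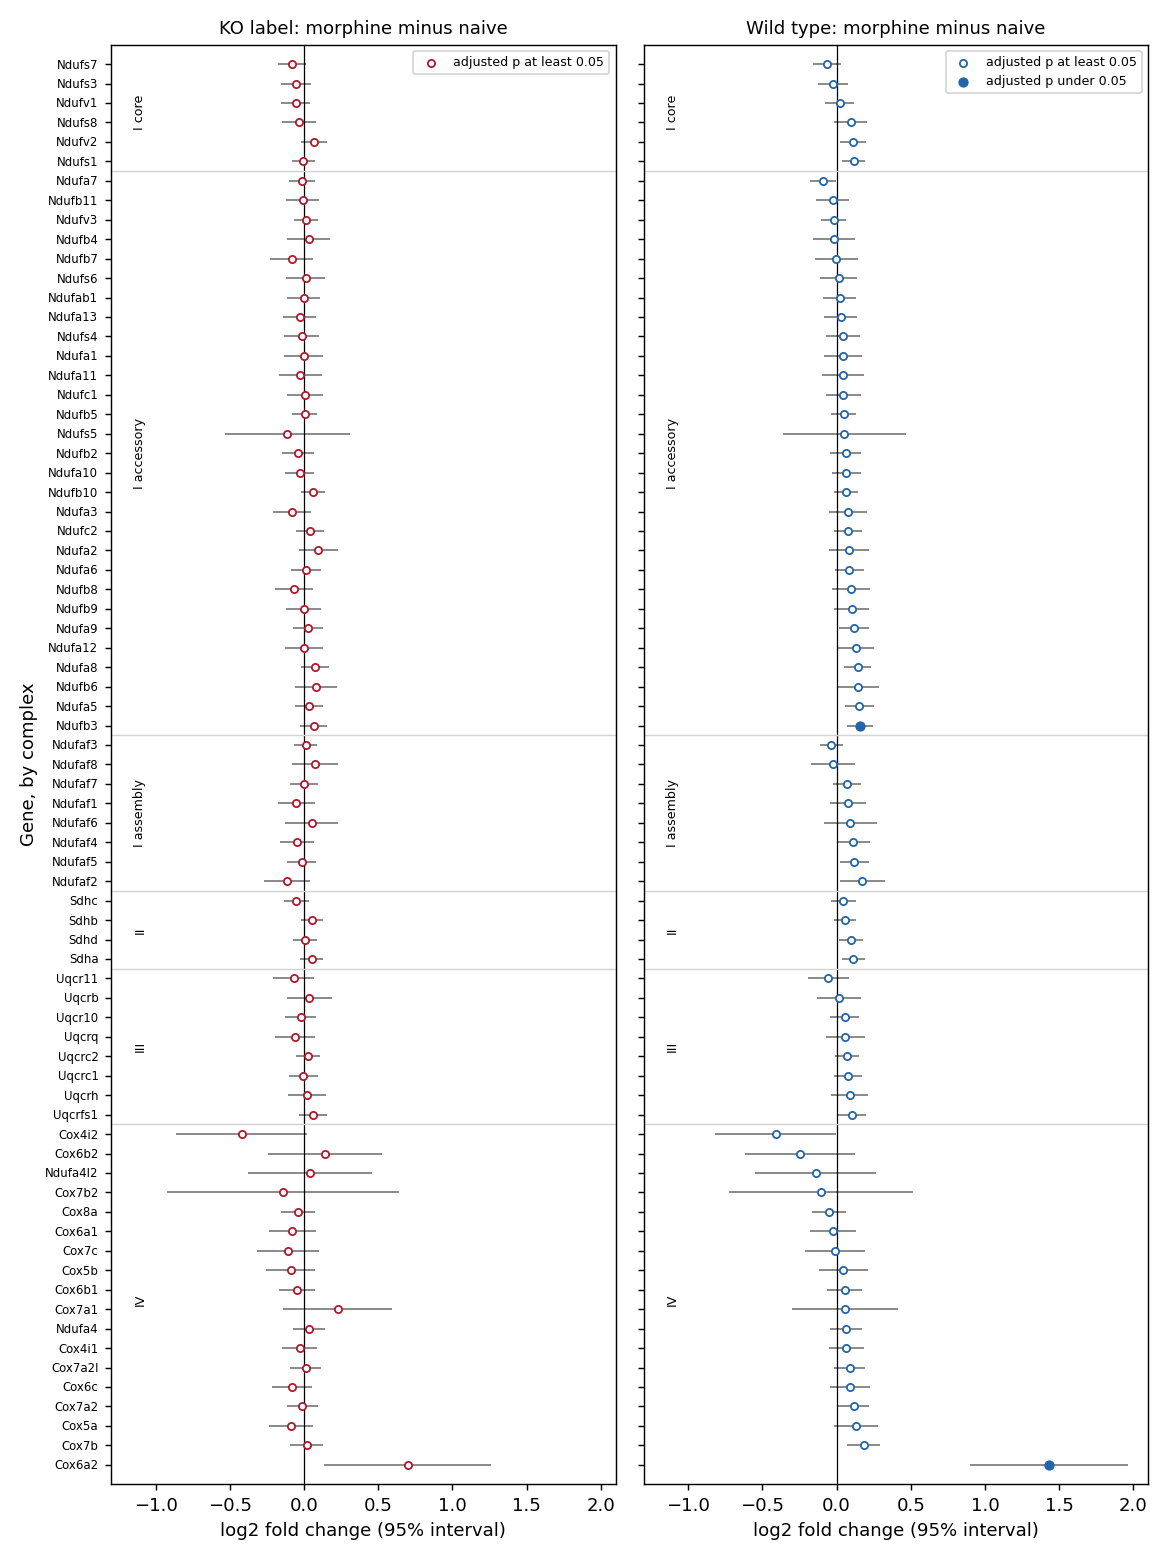
Log2 fold change of morphine against naive libraries for 73 of the 74 genes, each with its 95% interval, in knockout (left) and wild-type mice (right), sorted within each complex by the wild-type value; filled points passed an adjusted p of 0.05. Cox6a2 and Ndufb3 are filled on the right, no gene on the left, and most intervals lie close to 0 apart from those of the minor complex IV isoforms.

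Averaged over both genotypes, 5 of 74 genes were higher with morphine and 0 lower by edgeR's quasi-likelihood test, while 17.1% of all tested genes were called, 9.02% higher and 8.03% lower. DESeq2 called 6, all higher, and limma-voom called 5 higher and 1 lower. The 5 of edgeR were Cox6a2, with a log2 fold change of 1.07 ± 0.18 (adjusted p = 0.000765), Ndufb3 with 0.11 ± 0.03 (0.0151), Ndufa8 with 0.11 ± 0.03 (0.0224), Sdha with 0.08 ± 0.03 (0.0351) and Ndufv2 with 0.09 ± 0.03 (0.0447). Ndufa8 is an accessory subunit on the intermembrane face of complex I, and Ndufv2 a core subunit with an iron-sulfur cluster in the arm that oxidises NADH. Ndufa8 had 66.5, 71.2, 65.6 and 71.1 CPM in knockout morphine libraries, against 64, 65.8, 63.3 and 67.2 CPM in knockout naive libraries. It had 70.1, 70.4, 68.8 and 74.5 CPM in wild-type morphine libraries, against 63.7, 59.8, 63.5 and 70.1 CPM in wild-type naive libraries. In both genotypes the groups overlapped. The count of 5 was 3 without any 1 of 7 libraries (wild-type naive 2 or 3, knockout naive 1 or 2, and wild-type morphine 2, 3 or 4) and 14 without wild-type naive 4.

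Sdha had 627, 647, 632 and 620 CPM in knockout morphine libraries, against 596, 616, 608 and 614 CPM in knockout naive libraries. The lowest morphine library stood above the highest naive one. In wild-type mice Sdha had 625, 652, 652 and 643 CPM in morphine libraries, against 585, 562, 584 and 648 CPM in naive libraries. These overlapped through wild-type naive 4 alone. Ndufv2 had 134, 134, 138 and 132 CPM in knockout morphine libraries, against 127, 129, 126 and 131 CPM in knockout naive libraries. It had 131, 141, 137 and 137 CPM in wild-type morphine libraries, against 131, 115, 123 and 137 CPM in wild-type naive libraries. For Ndufv2, the groups were apart in knockout mice and overlapped in wild-type mice. Cox4i2 had a log2 fold change of -0.41 ± 0.14 and missed the threshold (adjusted p = 0.0525, edgeR's quasi-likelihood test).

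**Figure D4:**
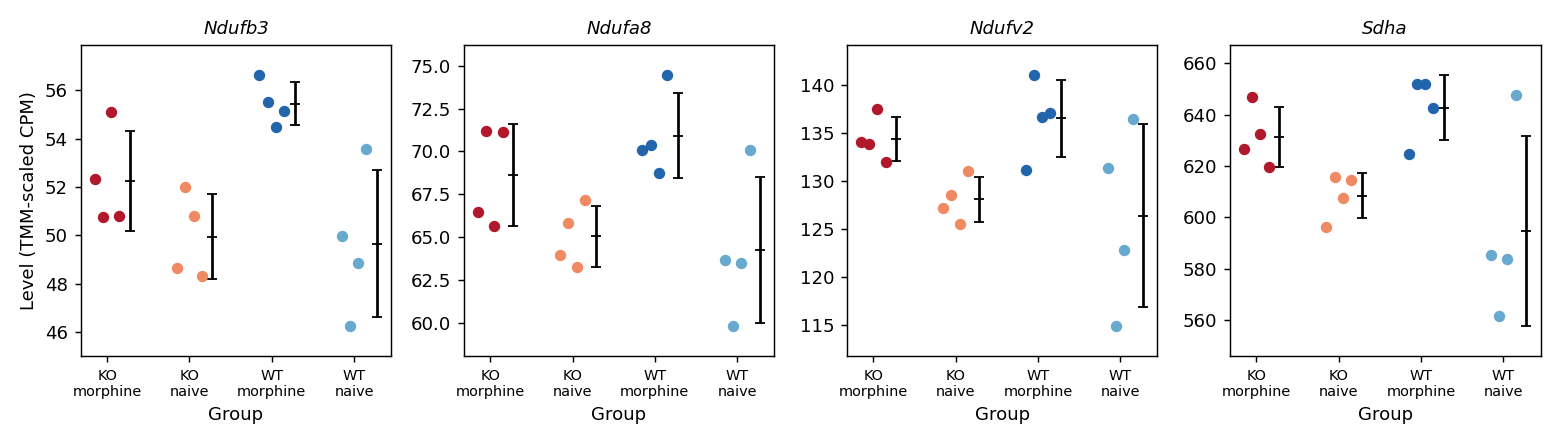
Level of Ndufb3, Ndufa8, Ndufv2 and Sdha in each library, as CPM scaled by TMM, on axes that do not start at 0; points are libraries, the bar beside them the mean and SD of 4. The morphine means lie above the naive means in both genotypes, and wild-type naive libraries spread most widely.

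Promoter sequence was read for the genes called in the averaged comparison, as far as RefSeq's table holds it (build GRCm38.p6; 60 of 74 genes matched), to show how genes with like small changes differ in their start regions. Each window runs from 250 bases before to 50 after the gene's start, 5′ to 3′ on the gene's strand. Capitals mark the letters GCGCANGCG on either strand, the core of the site bound by NRF-1, a factor known to drive many respiratory chain genes. The windows are Sdha at chr13:74350191-74350490 (minus strand), Ndufa8 at chr2:36049289-36049588 (minus), Ndufb3 at chr1:58586147-58586446 (plus) and Ndufv2 at chr17:66101510-66101809 (minus).
Sdha: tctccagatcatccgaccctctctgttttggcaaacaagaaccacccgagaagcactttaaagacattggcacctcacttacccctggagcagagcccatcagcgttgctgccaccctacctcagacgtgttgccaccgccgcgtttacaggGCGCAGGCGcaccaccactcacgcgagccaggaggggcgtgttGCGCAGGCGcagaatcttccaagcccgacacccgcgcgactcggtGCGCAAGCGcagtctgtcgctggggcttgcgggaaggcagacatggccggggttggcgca
Ndufa8: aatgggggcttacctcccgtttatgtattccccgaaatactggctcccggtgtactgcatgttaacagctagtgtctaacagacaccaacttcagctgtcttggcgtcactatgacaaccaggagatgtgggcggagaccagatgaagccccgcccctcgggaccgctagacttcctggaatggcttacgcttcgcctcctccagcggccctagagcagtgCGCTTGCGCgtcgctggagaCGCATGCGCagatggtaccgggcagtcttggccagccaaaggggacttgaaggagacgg
Ndufb3: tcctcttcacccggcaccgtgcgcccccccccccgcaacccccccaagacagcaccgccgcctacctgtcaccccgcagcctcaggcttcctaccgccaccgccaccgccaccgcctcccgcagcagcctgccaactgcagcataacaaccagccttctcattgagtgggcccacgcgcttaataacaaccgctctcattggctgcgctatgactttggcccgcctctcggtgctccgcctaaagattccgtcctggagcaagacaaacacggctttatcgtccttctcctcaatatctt
Ndufv2: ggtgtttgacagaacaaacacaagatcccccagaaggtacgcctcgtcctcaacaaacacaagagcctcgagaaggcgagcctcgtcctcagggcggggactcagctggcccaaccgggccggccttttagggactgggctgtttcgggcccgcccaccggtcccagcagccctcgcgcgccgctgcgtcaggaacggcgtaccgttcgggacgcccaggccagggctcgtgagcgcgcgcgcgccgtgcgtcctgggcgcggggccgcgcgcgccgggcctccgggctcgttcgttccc
The Sdha window held these letters at 3 places and the Ndufa8 window at 2, while those of Ndufb3 and Ndufv2 held none. These letters occurred in 15 of 60 respiratory chain genes (25%) and in 1901 of 27025 genes in the table (7.03%). The 15 comprised 8 of 27 complex I accessory subunits, 2 of 7 assembly factors and 0 of 5 complex I core subunits. The rest were 2 of 3 complex II, 2 of 5 complex III and 1 of 13 complex IV genes. CCGGAAG, the core letters of the site bound by GABP and other ETS factors, occurred in 13 genes (21.7%, against 9.93% in the table). AAGATGGCG, known for YY1, occurred in 6 (10%, against 1.64%). The genes in the table were not matched to the respiratory chain genes in gene type, level or share of G and C. Both strands were searched, and windows may hold several motifs, side by side or overlapping. A match is a run of letters and was not tested as a site. The letters were set after seeing the data, with longer NRF-1 and YY1 forms tried first, so these shares are a description only.

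Between the genotypes, no respiratory chain gene passed the test. Among naive mice, edgeR's quasi-likelihood test called 0 of 74, at an unadjusted p under 0.05 there were 3 of 74 and 2345 of all genes, and 0.906% of all genes were called, 0.442% higher and 0.464% lower; limma-voom called 0 and DESeq2 called 1, Cox7a2l. Cox7a2l, which joins complexes III and IV in supercomplexes, had 118, 118, 115 and 120 CPM in knockout naive libraries, against 108, 96.8, 101 and 111 CPM in wild-type naive libraries. The groups did not overlap, and the log2 fold change was 0.18 ± 0.05 (adjusted p = 0.104, edgeR's quasi-likelihood test). In 2 of the 74 genes, Cox7a2l and Ndufaf7, every knockout naive library lay above every wild-type naive one, and in 0 below. This held for 4.14% and 3.99% of all genes. Cox6a1 had 167, 164, 158 and 171 CPM in knockout naive libraries, against 140, 125, 137 and 159 CPM in wild-type naive libraries. These groups overlapped slightly, with a log2 fold change of 0.23 ± 0.07 (adjusted p = 0.172, edgeR's quasi-likelihood test). Without wild-type naive 4, both passed the same test (adjusted p = 0.0479 for Cox7a2l and 0.0471 for Cox6a1). That library had the highest wild-type naive level of both genes, so leaving it out had to widen the step. A genotype difference is therefore not shown for either gene.

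Among mice given morphine, edgeR's quasi-likelihood test called 0 of 74, against 0.53% of all genes (0.254% higher, 0.276% lower); at an unadjusted p under 0.05 there were 9 of 74 and 1745 of all genes, and DESeq2 and limma-voom also called 0. The median log2 fold change of knockout against wild type was -0.05, against 0.00 for all genes, and 13 of 74 values were positive. In 5 genes (Cox6a2, Cox7a2, Ndufa9, Ndufs1 and Uqcrq) every knockout library lay below every wild-type one, and in 0 above, against 3.02% and 2.25% of all genes. Ndufb8, an accessory subunit of the membrane arm of complex I, had a log2 fold change of -0.17 ± 0.06 (adjusted p = 0.329) and Cox6a2 -0.63 ± 0.25 (0.4), by edgeR's quasi-likelihood test. Cox6a1 and Cox7a2l, higher in knockout libraries among naive mice, were on the same side here, with overlapping groups and no call. Cox6a1 averaged 156 ± 15.4 CPM in knockout and 138 ± 9.52 CPM in wild-type morphine libraries (SD, n = 4 each). Cox7a2l averaged 119 ± 6.6 and 111 ± 6.76 CPM. The 95% interval lay within a 1.2-fold change either way for 60 of 74 genes, and for 65 among naive mice. These genotype comparisons share libraries with the morphine comparisons.

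Whether morphine acted differently in the genotypes was tested as an interaction. By edgeR's quasi-likelihood test 0 of 74 genes passed, as did 0% of all tested genes; at an unadjusted p under 0.05 there were 5 of 74 and 2200 of all genes. DESeq2 and limma-voom called 0 of the 74, and DESeq2 called 107 of all genes. Ndufaf2, an assembly factor of complex I, had the smallest p, with a difference in log2 fold change (knockout minus wild type) of -0.29 ± 0.10 (adjusted p = 0.298), and Cox6a2 had -0.73 ± 0.37 (0.433), both by edgeR's quasi-likelihood test. The median of the 74 differences was -0.07, and 12 were positive. A lone call in wild-type mice is therefore not shown to be a difference between the genotypes.

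The libraries were also summarised by a score, the mean over the 74 genes of log2 CPM centred over the 16 libraries. It was -0.04, -0.06, 0.05 and -0.01 in knockout morphine, -0.04, 0.03, -0.09 and 0.04 in knockout naive, -0.02, 0.07, 0.03 and 0.11 in wild-type morphine, and 0.00, -0.09, -0.06 and 0.09 in wild-type naive libraries. All groups overlapped, and the highest naive library, wild-type naive 4, lay near the highest morphine one. In wild-type naive 2, the library with the lowest score, the scores by complex were -0.10 for the complex I core, -0.11 for its accessory subunits, -0.10 for complex II, -0.10 for complex III and -0.06 for complex IV. In wild-type morphine 4, the highest, they were 0.08, 0.12, 0.07, 0.10 and 0.13 in the same order. Since the score is made of these complexes, like signs in its lowest and highest library are a description only. Over the knockout morphine libraries the complex IV score ran from -0.17 to 0.08 and the complex I core score from -0.05 to 0.03.

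Other transcripts shifted in the same libraries. The score of 18 ATP synthase genes was -0.11 in wild-type naive 2 and 0.12 in wild-type morphine 4. That of 17 genes listed with the tricarboxylic acid cycle was -0.12 and 0.06, and that of 16 glycolysis genes -0.10 and 0.10. The 10 neuron markers scored -0.22 and 0.16 in these libraries. Over the groups, the summed level of the neuron markers ran from 7919 to 8661 CPM in knockout morphine, from 7758 to 8288 CPM in knockout naive, from 8265 to 8980 CPM in wild-type morphine libraries and, in naive wild-type libraries, from 7258 to 8537 CPM, with none of the 10 at 0. With morphine, 2 of these markers were higher in knockout mice (5.67% of all genes), 0 in wild-type mice (2.34%) and 4 on average (9.02%). None of the markers was lower. Their median log2 fold changes were 0.05, 0.11 and 0.09 in that order, and 9 of 10 values were positive both in wild-type mice and on average. Wild-type naive 2 also had the highest score of 10 meningeal fibroblast markers, 2.51, with knockout morphine 3 next at 2.05. Without both libraries the median log2 fold change of the respiratory chain genes in wild-type mice was 0.03, and of the 2 genes higher there Cox6a2 remained. The part of tissue composition in these values was not tested further.

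**Figure D5:**
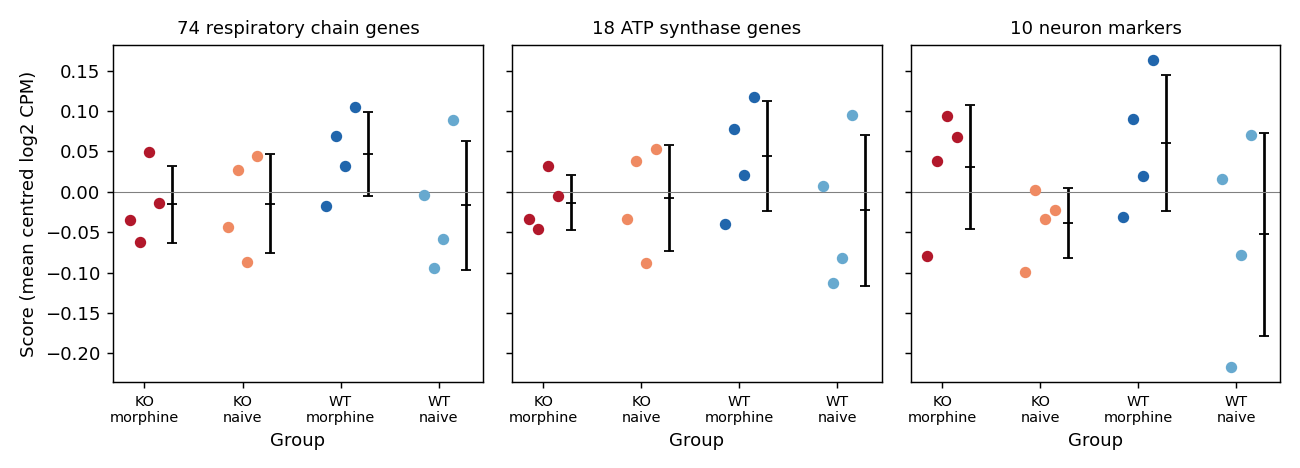
Score of the 74 respiratory chain genes, of 18 ATP synthase genes and of 10 neuron markers in each library, as the mean of log2 CPM centred over the 16 libraries; points are libraries, the bar beside them the mean and SD of 4. The lowest wild-type naive library and the highest wild-type morphine library are the same in all 3 panels.

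Markers of other cells changed too. In knockout mice 7 of 10 oligodendrocyte markers were lower with morphine, with a median log2 fold change of -0.50, against 0 of 10 and 0.03 in wild-type mice. All 10 serotonin neuron markers were higher in knockout morphine libraries (median 1.95), against 0 of 10 called in wild-type mice (median 0.56). In the averaged comparison 4 oligodendrocyte markers were lower and 9 serotonin neuron markers higher. Of 10 microglia markers, 1 was lower in knockout mice, 1 in wild-type mice and 7 on average, with medians of -0.20, -0.25 and -0.23 in that order. Of 10 endothelial markers, 4 were lower in knockout mice, 3 were lower and 1 higher in wild-type mice, and 5 were lower and 1 higher on average, with medians of -0.26, -0.25 and -0.25. Of all genes tested, 5.83% were lower and 5.67% higher in knockout mice, 2.07% and 2.34% in wild-type mice, and 8.03% and 9.02% on average. The respiratory chain genes had a median of 0.00 in knockout and 0.06 in wild-type mice. In edgeR's interaction test 0 of these markers passed, so a difference between the genotypes is not shown. The part of these shifts in the respiratory chain values was not tested.

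Genes that work with the chain were read from lists chosen by function. Of 18 ATP synthase genes, 0 passed in either genotype; Atp5c1, the gamma subunit of its rotor, had an averaged log2 fold change of 0.11 ± 0.03 (adjusted p = 0.0138). Cycs, the gene of cytochrome c, did not pass the test in any of the 6 comparisons. Neither did Cyc1, the gene of cytochrome c1, a complex III subunit that the symbol rule left out of the 74 genes. Of 34 tested assembly factors of complexes I to IV outside the 74 genes, 0 passed in knockout mice and 1 was higher in wild-type mice, Ttc19 of complex III, with 0.15 ± 0.04 (adjusted p = 0.0253). Cox18, which helps insert a complex IV subunit into the membrane, was higher in knockout than in wild-type mice given morphine, with 0.43 ± 0.08 (adjusted p = 0.0165). All p-values here come from edgeR's quasi-likelihood test.

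Of 19 regulators of mitochondrial biogenesis, 1 was higher and 4 were lower with morphine in knockout mice, where 5.67% of all genes were higher and 5.83% lower. In wild-type mice 0 were higher and 1 lower, where these shares were 2.34% and 2.07%; 0 passed edgeR's interaction test. Gabpb2, a subunit of the ETS factor GABP, fell in both, with log2 fold changes of -0.22 ± 0.05 in knockout mice (adjusted p = 0.0126) and -0.19 ± 0.05 in wild-type mice (adjusted p = 0.0478). In knockout mice Ppargc1b, a coactivator, fell by 0.29 ± 0.07 on the log2 scale (adjusted p = 0.0133) and Polrmt, the mitochondrial RNA polymerase, by 0.20 ± 0.05 (0.0132), while Gabpb1 rose by 0.17 ± 0.04 (0.0193). Nrf1, the gene of the NRF-1 factor, was lower in the averaged comparison, with -0.11 ± 0.03 (adjusted p = 0.0219, all by edgeR's quasi-likelihood test). The list had a median of -0.13 in knockout and 0.00 in wild-type mice, against 0.00 and 0.06 for the respiratory chain genes.

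Of 6 kinases and phosphatases of pyruvate dehydrogenase, 1 was higher with morphine in knockout mice and 2 in wild-type mice, and none was lower; their median log2 fold changes were 0.04 and 0.00. Pdk4, the kinase that switches off pyruvate dehydrogenase, rose with morphine by a log2 fold change of 0.86 ± 0.21 in knockout (adjusted p = 0.0223) and 1.69 ± 0.21 in wild-type mice (adjusted p = 0.000468). Pdp1, the phosphatase that switches the enzyme on, had 0.10 ± 0.04 in knockout mice (adjusted p = 0.108) and rose by 0.24 ± 0.04 in wild-type mice (adjusted p = 0.00209). Of 9 genes of uncoupling and of other electron entry, 1 was higher in each genotype and none lower, with medians of 0.03 and 0.05 in knockout and wild-type mice. That was Ucp2, an inner membrane carrier of the uncoupling protein family, which rose by 0.37 ± 0.07 in knockout (adjusted p = 0.00489) and 0.34 ± 0.07 in wild-type mice (adjusted p = 0.0153). Of 16 glycolysis genes 2 rose in knockout mice, Ldha by 0.26 ± 0.06 (adjusted p = 0.00727) and Hk1 by 0.12 ± 0.04 (0.0441), and 0 passed in wild-type mice. Of 17 genes listed with the tricarboxylic acid cycle 0 passed in knockout mice and 1 rose in wild-type mice. The gene, Pdha1, encodes a subunit of pyruvate dehydrogenase, upstream of the cycle itself, and rose by 0.12 ± 0.03 (adjusted p = 0.0484). All these values are from edgeR's quasi-likelihood test. Of 76 mitochondrial ribosomal protein genes 2 were higher in knockout and 1 in wild-type mice, and of 82 cytosolic ones 0 and 1. The shares called in these lists of glycolysis, tricarboxylic acid cycle and ribosomal genes lay near or below those of all genes, 11.5% in knockout and 4.41% in wild-type mice, counting both directions.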

How the data were processed

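PolyA RNA of 16 libraries, 4 per group, was counted per gene. The counts deposited are whole numbers of reads. The submitters' processing notes name HTSeq, limma and mm10, while the aligner, the annotation and the strand option are not given in the sources used. Per the labels' protocols, the kit was TruSeq RNA v2, which leaves the strand unmarked, and TRIzol was used for isolation. All of HTSeq's tallies of reads not assigned to a gene, 38.2 to 40.6% of the total, were left out. Symbols, positions and exon lengths came from GENCODE M21 (GRCm38, the same assembly as mm10); 37607 of 38924 identifiers matched.

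After filterByExpr (minimum count 10) and TMM scaling (factors 0.985 to 1.04), the 16 libraries entered a single robust fit with 1 term for each group. The test was edgeR's quasi-likelihood test (version 4.0.16 under R 4.3.3; tested on simulated data), with Benjamini-Hochberg adjustment over all 18111 genes, which include all 74. The common biological coefficient of variation was 0.0835. Values are log2 fold changes ± SE; p-values measure the spread between pools of 2 mice. Alternatives were other scalings, filters, DESeq2 (1.42.0), limma-voom (3.58.1), a replicate block, only the groups compared and leaving out libraries. No 2 replicates agreed within sampling noise. The genes named were called genes, the smallest p per complex, fixed subunits and isoform pairs, and the highest and lowest level per complex; genes of other lists were those with the smallest p, and further genes (the next highest levels, those without overlap between groups, Ndufs5, Itgad) were chosen after their values were seen. The genes and lists were chosen with earlier results of these data known. The motif letters and the 1.2-fold bound were set after seeing the data: longer forms of the NRF-1 and YY1 motifs, a glucocorticoid response element and a slightly wider bound were tried first and are not reported. The values of 1 gene of the 74 are not reported here, though it enters every count.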

Additional observations from a re-analysis of the deposited data

Results flagged for a closer look

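In groups of 4, 7 of 192 combinations of a group with a named gene or a score had 1 library far from the other 3 (by Dixon's ratio of gap to range); chance gives about 1 in 20, or 9.6. In wild-type morphine 2, Cox6a2 stood at 1.67 CPM against 1.23 to 1.28 CPM in the others, and the score of the complex I assembly factors at 0.01651 against 0.03497 to 0.03732. In wild-type morphine 3, Cox6b2 stood at 2.856 CPM against 2.49 to 2.53 CPM. In knockout morphine 3, which is high in meningeal markers, the complex I core score was 0.02758 against -0.05196 to -0.03947, Ndufaf2 had 21.02 CPM against 17.78 to 18.29 CPM, and Ndufs8 had 59.19 CPM against 52.7 to 53.6 CPM. In knockout morphine 2, Sdhb had 121 CPM against 116.9 to 117.3 CPM. The cause of these distances was not tested.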

How the results depend on the processing

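Over 25 alternatives, the log2 fold changes of named genes stayed on the same side of the threshold in 4880 of 4944 values. The call was lost in 39, gained in 25 and reversed in direction in 0. Of the 4880, 207 uncalled values changed sign. The 2 calls in wild-type mice became 1 with upper-quartile factors, with at least 1 CPM in 8 libraries (which removes Cox6a2 from the test), with only the 2 groups compared, and without wild-type naive 2 and knockout morphine 3 together (an alternative added after seeing the data), and 7 with DESeq2; leaving out single libraries gave 1 to 12. The 5 averaged calls became 3 without that pair of libraries (2 higher, 1 lower) and 3 to 14 without single libraries. The 0 calls in knockout mice became 0 to 1 without single libraries; those between naive genotypes became 1 with DESeq2 and 0 to 2 without single libraries. Cox6a2 in wild-type mice passed without each single library (1.33 to 1.56, adjusted p up to 0.015), Ndufb3 did not (0.12 to 0.20, adjusted p up to 0.14). Replicate numbers are shared by the groups, but same-numbered libraries did not deviate together (24 correlations, -0.283 to 0.133, 3 over 0.1); with the replicate block as a term, 2 genes passed in wild-type mice, 4 in the averaged comparison and 0 in the other comparisons. Over all genes, the counts of 798 in wild-type mice, 164 between naive genotypes, 96 between genotypes given morphine and 0 for the interaction were 1242, 376, 202 and 107 with DESeq2; with the block the first 2 were 512 and 89. The cause of these shifts was not tested. Depth limits the minor isoforms: Cox7b2 had 1 to 19 counts a library.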
